A study of Mus musculus with 12 samples.

Results

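The miR-181 family of microRNAs was described in 12 small RNA libraries from mouse retina. All reads on the 6 annotated mouse precursors mmu-mir-181a-1, mmu-mir-181a-2, mmu-mir-181b-1, mmu-mir-181b-2, mmu-mir-181c and mmu-mir-181d were taken, and a read that matched several of them was counted once. These were 6 of 1532 precursors seen in the libraries, of which 997 were annotated and 535 were predicted by the submitters. They held 3466744 of 62878432 counted reads (5.51%) in 3066 distinct sequences. Of the 9 mature arms of the family that were seen, 8 passed the filter on low counts, among 812 arms tested of 2154.

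The libraries formed 2 groups of db/db mice, which lack a functional leptin receptor and develop obesity and type 2 diabetes. In the Keluoxin group (n = 6) the db/db mice had been treated with Keluoxin, a herbal capsule of Chinese medicine. In the model group (n = 6) the db/db mice carried the same genotype and were labelled only as model. The strain label differed between all 12 libraries in the number before BL, from C63BL/KsJ-db/db to C68BL/KsJ-db/db in Keluoxin and from C57BL/KsJ-db/db to C62BL/KsJ-db/db in model, and was otherwise the same. No dose, time or age was given, and no mice without diabetes were analysed here. The tissue label was retinal, whereas the RNA extraction was described for an exosome pellet, and the labels do not say that each library came from its own animal, so p-values measure only the spread between these libraries. No batch was given, and a batch that ran with the groups cannot be told apart from the treatment. In whole tissue, fewer cells of a type and less RNA per cell cannot be told apart either.

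A microRNA precursor folds into a hairpin from which Drosha and Dicer release 2 strands, named 5p and 3p after their arm. One strand is usually kept by an Argonaute protein and pairs with messenger RNAs mainly through its seed, bases 2 to 8. In the vertebrate retina miR-181a and miR-181b are known from the inner retina, in amacrine and ganglion cells, and have been tied to axon growth in fish and to mitochondrial turnover in neurons of mouse retina. After processing, terminal nucleotidyl transferases can add bases to the 3′ end, most often A or U, and exonucleases can trim it, so 1 microRNA appears as reads that differ at their 3′ end.

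The mature sequences are shown because they show which members share a seed and how few bases set the others apart. They are the RefSeq sequences of GRCm38.p6, with the seed in capitals; all 12 RefSeq entries of the family were found within the deposited precursors of the same names. The 4 5p strands read as follows.

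miR-181a-5p: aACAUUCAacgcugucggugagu
miR-181b-5p: aACAUUCAuugcugucgguggguu
miR-181c-5p: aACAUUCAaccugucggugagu
miR-181d-5p: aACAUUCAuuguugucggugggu

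All 4 share the seed ACAUUCA. Counted from the 5′ end, miR-181b-5p differs from miR-181a-5p by A9U, C10U and A21G, and miR-181d-5p differs from miR-181b-5p by C12U. miR-181c-5p equals miR-181a-5p without base 11. The 3p strands are specific to a gene copy, whereas the 5p strands of miR-181a and of miR-181b are the same from both copies.

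miR-181a-1-3p: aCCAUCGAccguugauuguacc
miR-181a-2-3p: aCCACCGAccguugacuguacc
miR-181c-3p: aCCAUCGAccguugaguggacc
miR-181b-1-3p: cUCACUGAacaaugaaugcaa
miR-181b-2-3p: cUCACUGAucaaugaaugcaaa
miR-181d-3p: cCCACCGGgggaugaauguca

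miR-181a-1-3p and miR-181c-3p share a seed and differ by U16G and U19G. miR-181a-2-3p differs from miR-181a-1-3p by U5C, inside the seed, and U16C. miR-181b-1-3p and miR-181b-2-3p share another seed and differ by A9U over their common length.

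The 6 precursors come from 3 pairs of neighbouring genes in GRCm38.p6. Mir181a-1 (chr1:137966455-137966541) and Mir181b-1 (chr1:137966639-137966718) lie on the plus strand, 97 bases apart, in an exon of the long noncoding RNA A430106G13Rik. Mir181a-2 (chr2:38852735-38852810) and Mir181b-2 (chr2:38853830-38853918) lie 1019 bases apart on the plus strand, within an intron of Nr6a1, which is transcribed from the opposite strand. Mir181d (chr8:84178716-84178787) and Mir181c, whose mature strands span chr8:84178885-84178945, lie on the minus strand within an intron of Nanos3. Because of the shared 5p strands, 70.7% of the family's reads matched both mir-181a copies and 25.7% both mir-181b copies. No read of the family also matched a precursor outside it.

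The libraries held 1933375 to 7892147 counted reads. A profile of neural retina was seen in both groups, with the arms of the photoreceptor cluster mir-182, mir-183 and mir-96 summing to 311203 ± 72171 CPM, reads scaled to library size, in Keluoxin and 384807 ± 23658 CPM in model (SD, n = 6 each). Some markers of other cells differed between the groups, and others stood out in single libraries. The arms of mir-126a, an endothelial microRNA, summed to 1272 ± 147 CPM in Keluoxin and 1823 ± 204 CPM in model, without overlap. Those of the erythroid mir-451a, mir-144 and mir-486a ran from 56.5 to 722.6 CPM in Keluoxin and from 57.9 to 76.6 CPM in model. Those of mir-184 and mir-205, found in lens and cornea epithelium, reached 10004 CPM in Keluoxin library 4, against at most 421.8 CPM in any model library, and those of the muscle microRNAs reached 1911 CPM in the same library, against at most 427.1 CPM in model. The leukocyte arms summed to 79.5 ± 6.5 CPM in Keluoxin and 77.1 ± 5.1 CPM in model. Mural mir-143 and mir-145a summed to 4350 ± 1448 CPM in Keluoxin and 3214 ± 574 CPM in model. Neuronal mir-9 and mir-124 summed to 99237 ± 12879 CPM in Keluoxin and 120242 ± 6595 CPM in model. Pigment epithelium mir-204 and mir-211 summed to 11227 ± 651 CPM in Keluoxin and 10730 ± 1059 CPM in model. Liver mir-122 ran from 2.38 to 41.2 CPM in Keluoxin and from 1.18 to 4.93 CPM in model. The groups overlapped for each of these. The part of these cells in the results on the family was not tested. On the first principal component of all tested arms, which held 52.5% of the variance, model library 1 lay on the Keluoxin side.

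miR-181c-5p was the only one of the 8 tested arms of the family whose level passed the test, and it was higher in Keluoxin. miR-181a-5p and miR-181b-5p, which held nearly all of the family's reads, had close to the same mean level in both groups, and none of the 3p arms passed. Levels are in CPM scaled by the trimmed mean of M-values, and tests are edgeR's quasi-likelihood test with Benjamini-Hochberg adjustment over the 812 arms, at 0.05. In this fit 17.2% of all arms passed, 9.24% higher and 8% lower in Keluoxin, and the median over all arms was 0.03 on the log2 scale, so 1 of 8 lies near the background. Of the 512 annotated arms tested, 13.7% passed.

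miR-181a-5p, the most abundant member, ran from 33540 to 41112 CPM in Keluoxin, median 39771, and from 36537 to 43056 CPM in model, median 38645. The groups overlapped, and the log2 fold change was −0.01 (SE 0.07, edgeR adjusted p = 0.913). It ranked 7 among the 1437 annotated arms seen. miR-181b-5p, which differs from it outside the seed, had 11650 to 15940 CPM in Keluoxin, median 14757, and 13006 to 17113 CPM in model, median 14641 (−0.02, SE 0.09, edgeR adjusted p = 0.897). It ranked 14. For both, Keluoxin library 4 had the lowest level of the 12 libraries. miR-181d-5p, encoded beside miR-181c, had 596.2 to 875.2 CPM in Keluoxin, median 829.7, and 702.7 to 864.3 CPM in model, median 745.9 (0.07, SE 0.11, edgeR adjusted p = 0.652).

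miR-181c-5p had 175.7, 143.3, 141.4, 172.8, 143.7 and 164.5 CPM in Keluoxin libraries 1 to 6. In model libraries 1 to 6 it had 113.4, 99.2, 129.1, 117.0, 120.7 and 111.0 CPM. Every Keluoxin library lay above every model library, a pattern that 7.88% of all tested arms showed in either direction. The mean was 156.9 ± 15.91 CPM in Keluoxin and 115.1 ± 10.03 CPM in model (SD, n = 6 each). The log2 fold change was 0.45 (SE 0.10, edgeR adjusted p = 0.0158). The call was lost with upper quartile scaling (0.18, adjusted p = 0.442), with no filter on low counts (0.39, adjusted p = 0.137) and without Keluoxin library 3 (0.39, adjusted p = 0.0575), and held in the other 11 fits that left out 1 library. Upper quartile scaling lowered the median over all arms to −0.22, and total reads raised it to 0.22, where miR-181c-5p stood at 0.65.

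**Figure D1:**
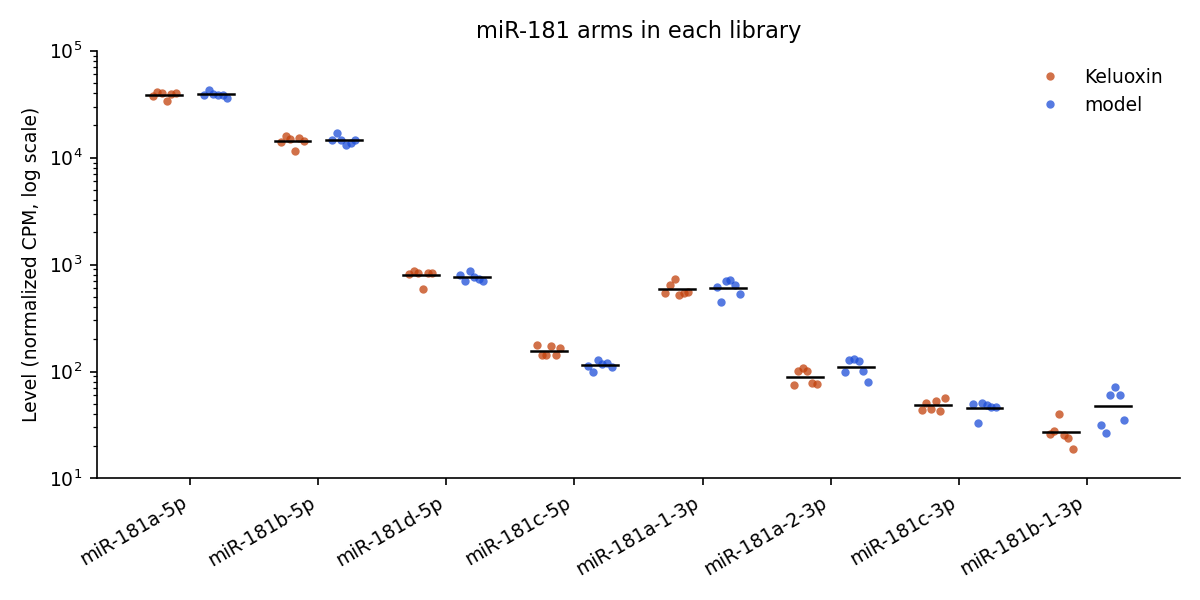
Level of each tested miR-181 arm in each library (normalized CPM, log axis); points are libraries, 6 Keluoxin and 6 model per arm, and lines are group means. For miR-181c-5p the Keluoxin libraries lie at 141.4 to 175.7 CPM and the model libraries at 99.2 to 129.1 CPM, while the groups overlap for the other 7 arms.

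The make-up of the family was described from the same counts as the level test, so it is not separate support. As a share of all counted reads, which is scaling by total reads, the members took 5.84% ± 0.41 in Keluoxin and 5.23% ± 0.52 in model, with overlap (SD, n = 6 each). Shares and ratios within the family need no scaling between libraries. miR-181a-5p made up 71.7% ± 0.9 of the family's 5p reads in Keluoxin and 71.7% ± 1.2 in model, and miR-181b-5p 26.6% ± 0.9 in Keluoxin and 26.7% ± 1.3 in model. miR-181d-5p made up 1.46% ± 0.08 in Keluoxin and 1.39% ± 0.14 in model. miR-181c-5p made up 0.293% ± 0.052 in Keluoxin, lowest library 0.247%, and 0.212% ± 0.026 in model, highest library 0.233%, with no overlap. There were 251 ± 39 reads of miR-181a-5p for each read of miR-181c-5p in Keluoxin and 343 ± 46 in model, again with no overlap. The ratio of miR-181d-5p to miR-181c-5p, whose genes lie side by side, was 5.15 ± 1.01 in Keluoxin and 6.62 ± 0.41 in model, and there Keluoxin library 2, at 6.11, overlapped model library 5, at 6.04. These ratios are descriptions and carry no test.

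**Figure D2:**
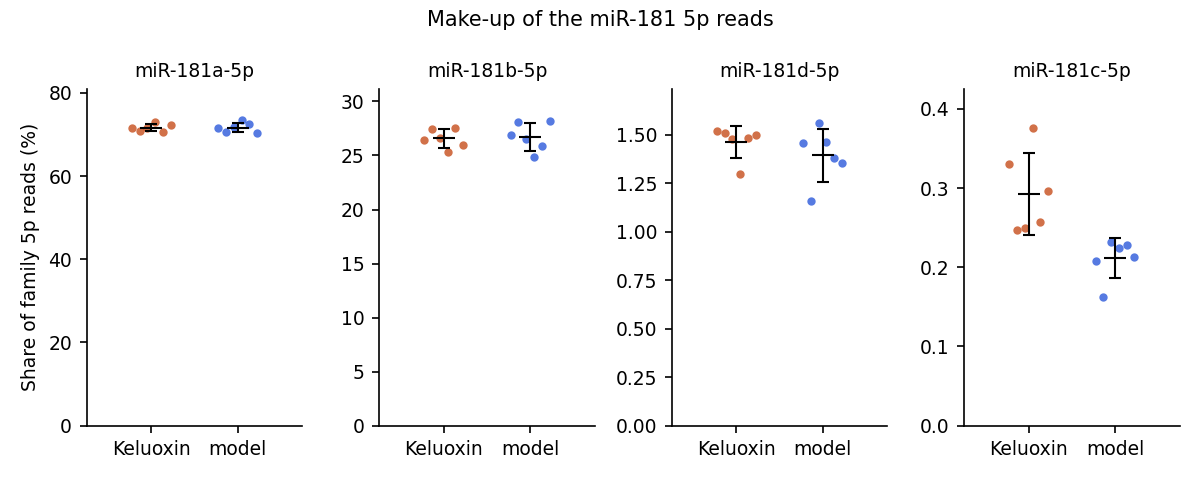
Share of the family's 5p reads held by each 5p strand (%, each panel with its own axis from 0); points are libraries, with mean and SD of 6. miR-181c-5p holds 0.293% in Keluoxin and 0.212% in model, and the points of its groups do not overlap.

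A read of miR-181c-5p differs from one of miR-181a-5p by a single deletion, so sequencing errors in the abundant member could in principle appear as the rare one. Reads of miR-181a-5p with 1 base deleted at positions 2 to 18 numbered 348 in Keluoxin and 297 in model over all libraries and positions, with at most 101 in Keluoxin and 135 in model at 1 position. Sequences read once in a library were not listed, so rarer deletions are missing from these counts. The reads of miR-181c-5p numbered 4834 in Keluoxin and 3788 in model. For miR-181d-5p, which is 1 C-to-U change away from miR-181b-5p, the same kind of change at another C of miR-181b-5p, position 16, was found in 0.104% of its reads in Keluoxin and 0.0923% in model. The reads of miR-181d-5p came to 5.51% of those of miR-181b-5p in Keluoxin and 5.24% in model. Changes at the remaining C positions were not counted, and the part of sequencing errors in either member was not tested.

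Reads of the 3p strands can be assigned to a gene copy. How much each copy was processed was not tested. miR-181a-1-3p, from chromosome 1, had 515.0 to 738.4 CPM in Keluoxin, median 552.1, and 442.5 to 715.1 CPM in model, median 631.3 (log2 fold change −0.05, SE 0.14, edgeR adjusted p = 0.826). miR-181a-2-3p, from chromosome 2, had 74.8 to 106.8 CPM in Keluoxin, median 89.2, and 79.8 to 130.0 CPM in model, median 113.3 (−0.30, SE 0.16, edgeR adjusted p = 0.181). The copy on chromosome 1 thus held 86.8% ± 1.6 of the 3p reads of miR-181a in Keluoxin and 84.4% ± 3.5 in model. miR-181b-1-3p, from the same chromosome 1 pair, had 18.8 to 40.3 CPM in Keluoxin, median 25.8, and 26.5 to 72.0 CPM in model, median 47.8. Its mean was 27.0 ± 7.2 CPM in Keluoxin and 47.8 ± 18.9 CPM in model, and the log2 fold change of −0.82 (SE 0.28) did not pass (edgeR adjusted p = 0.0582). It passed with DESeq2 (−0.85, adjusted p = 0.0319), with upper quartile scaling (−1.12, adjusted p = 0.0367), and without Keluoxin library 3 or model library 1 or 2 (−1.07, −0.91 and −0.96, adjusted p of 0.0371, 0.0289 and 0.0375). miR-181b-2-3p did not pass the filter on low counts. It had 0 to 1.72 CPM in Keluoxin and 0.341 to 2.94 CPM in model, so the chromosome 1 copy held 96.8% ± 2.6 of the 3p reads of miR-181b in Keluoxin and 96.7% ± 2.2 in model.

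The chromosome 8 pair was uneven in its 3p strands. miR-181c-3p had 42.8 to 56.0 CPM in Keluoxin, median 47.5, and 33.2 to 50.5 CPM in model, median 47.6 (log2 fold change 0.08, SE 0.14, edgeR adjusted p = 0.698). miR-181d-3p had 0 reads in all 12 libraries. Among listed reads, a count of 0 in 62878432 allows up to 0.0477 CPM, at 3 counts over all libraries. Against that limit the 48649 reads of miR-181d-5p were at least 16216-fold more. Every listed sequence had 2 reads or more, so sequences read once in a library are covered by neither value. The limit covers counting error only.

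By mean level over all 12 libraries the arms ran from miR-181a-5p through miR-181b-5p, miR-181d-5p, miR-181a-1-3p, miR-181c-5p, miR-181a-2-3p, miR-181c-3p and miR-181b-1-3p to miR-181b-2-3p. The order was the same within Keluoxin, whereas in model miR-181b-1-3p, at 47.8 CPM, lay above miR-181c-3p, at 45.9 CPM. The ranges of miR-181d-5p and miR-181a-1-3p over libraries overlapped in both groups. Those of miR-181c-5p and miR-181a-2-3p, and those of miR-181c-3p and miR-181b-1-3p, overlapped in model and did not overlap in Keluoxin. A read stands for 1 molecule whatever its length, but the ligation of adaptors depends on sequence, so levels of different arms are compared only as reads.

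None of the 4 precursors whose ratio of arms could be tested passed. The ratio was taken as log2 of 5p over 3p reads, each plus 0.5, and tested with limma over 168 precursors, of which 14.3% passed; at an unadjusted p under 0.05, 2 of the 4 would pass. For mir-181c it was 1.70 ± 0.18 in Keluoxin and 1.33 ± 0.14 in model (difference 0.37, SE 0.13, limma adjusted p = 0.0781). The 3p strand made up 23.6% ± 2.2 of the reads of mir-181c in Keluoxin and 28.4% ± 1.9 in model. For mir-181b-1 the log2 ratio was 9.09 ± 0.36 in Keluoxin and 8.35 ± 0.71 in model (0.74, SE 0.31, adjusted p = 0.119). For mir-181a-2 it was 8.77 ± 0.26 in Keluoxin and 8.49 ± 0.23 in model (0.28, SE 0.17, adjusted p = 0.249), and for mir-181a-1 it was 6.05 ± 0.15 in Keluoxin and 6.02 ± 0.31 in model (0.02, SE 0.16, adjusted p = 0.955). In the ratios of mir-181a and mir-181b, the 5p reads are those of both copies. mir-181b-2 had too few 3p reads for this test.

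Long 5p reads gave another view of the copies, since the precursors part beyond the mature strand. The lead reads that matched 1 copy throughout are shown with the bases from the point of parting in capitals, which is base 28 for mir-181a and base 25 for mir-181b. Capitals run to the end of the read, and not every base in capitals differs between the copies.

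mir-181a-1: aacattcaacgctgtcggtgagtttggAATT
mir-181a-2: aacattcaacgctgtcggtgagtttggG
mir-181b-1: aacattcattgctgtcggtgggttG
mir-181b-2: aacattcattgctgtcggtgggttT

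Of the 5p reads that matched 1 copy of mir-181a throughout, the chromosome 1 copy held 203 and the chromosome 2 copy 9 in Keluoxin. In model they held 324 and 5. The chromosome 1 copy thus had 97.4% of these reads, and reads of the chromosome 2 copy were seen in 4 of 12 libraries. With at least 2 bases specific to a copy there were 0 reads of either mir-181a copy, so this share rests on 1 base. The lead read of the chromosome 2 copy ends at this base and cannot be told apart from a shorter read with G added. For mir-181b the share went the other way. The chromosome 2 copy held 3541 such reads and the chromosome 1 copy 652 in Keluoxin, while in model they held 2812 and 510, so the chromosome 2 copy had 84.5%. Most of these were the 25-base read that ends in T, which cannot be told apart from a mature strand with a T added. Among reads with at least 2 bases specific to a copy, the chromosome 2 copy had 119 and the chromosome 1 copy 137 in Keluoxin, and in model they had 114 and 184, which left 42.1% to the chromosome 2 copy. The copy on chromosome 1, with 96.8% of the 3p reads of miR-181b in Keluoxin and 96.7% in model, had 53.5% of these longer copy-specific 5p reads in Keluoxin and 61.7% in model.

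At the 3′ end, reads of miR-181a-5p, miR-181b-5p and miR-181d-5p more often carried a base in their last 3 positions that differs from the precursor in Keluoxin, by 8.50, 10.4 and 8.48 percentage points. Such reads were more frequent across the whole library too. With limma on 378 arms that had at least 50 reads in every library, 59.8% of arms passed, 57.4% higher in Keluoxin, and the median difference of all arms was 5.64 points. The members' rise is therefore read against a rise that most arms shared.

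miR-181a-5p had such a base in 31.3% to 40.3% of its reads in Keluoxin, median 37.6%, and in 25.1% to 31.6% in model, median 28.4%. The groups overlapped through Keluoxin library 4 and model library 6, and the mean was 37.2% ± 3.1 in Keluoxin and 28.7% ± 2.2 in model (difference 8.50 points, SE 1.52, limma adjusted p = 0.000943). miR-181b-5p had 44.4% to 49.6% in Keluoxin and 32.8% to 39.8% in model, with no overlap (10.4 points, SE 1.32, limma adjusted p = 0.000144). miR-181d-5p had 41.7% to 48.4% in Keluoxin and 31.7% to 41.3% in model, with no overlap (8.48 points, SE 1.63, limma adjusted p = 0.00147). miR-181c-5p had 35.3% to 45.4% in Keluoxin and 30.8% to 41.2% in model, and its 4.24 points (SE 1.98) did not pass (limma adjusted p = 0.0804). Without Keluoxin library 4 it was 5.55 points and passed (adjusted p = 0.0144).

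The 3p arms had more such reads in both groups and differed less between them. miR-181a-1-3p had 52.9% ± 5.5 in Keluoxin and 50.3% ± 2.2 in model (limma adjusted p = 0.346), and passed without Keluoxin library 4 (4.37 points, adjusted p = 0.0391). miR-181a-2-3p had 49.9% ± 6.7 in Keluoxin and 46.3% ± 2.0 in model (adjusted p = 0.271), and miR-181c-3p had 56.1% ± 4.2 in Keluoxin and 56.0% ± 4.1 in model (adjusted p = 0.970). Whether the 5p and 3p arms differ in this was not tested.

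**Figure D3:**
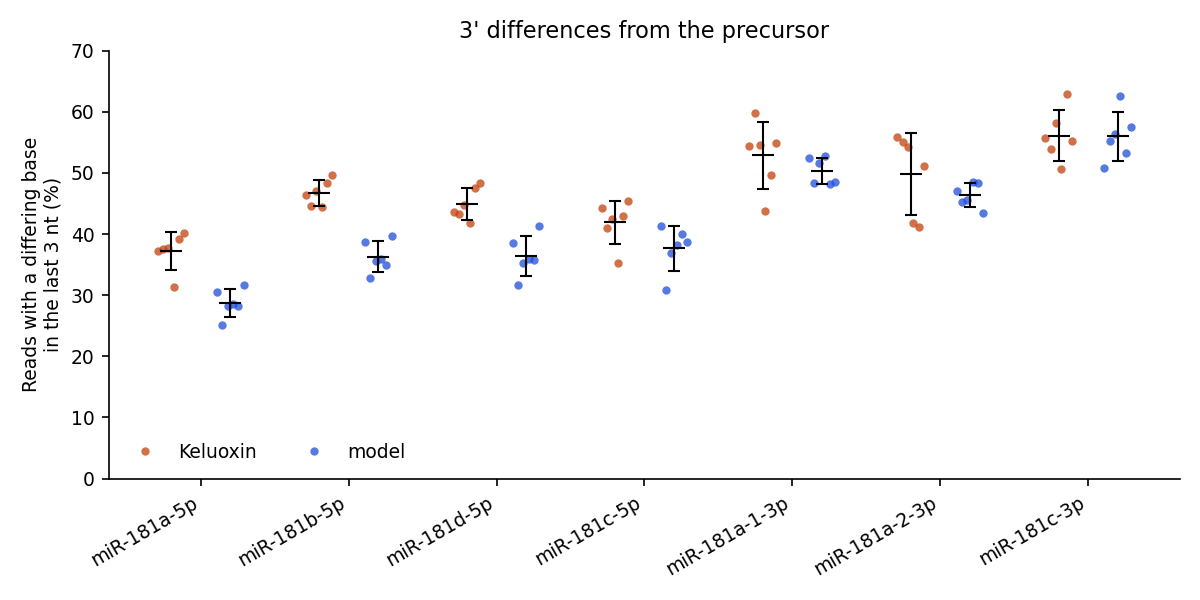
Percent of reads of each arm with a base in the last 3 positions that differs from the precursor; points are libraries, with mean and SD of 6. miR-181b-5p lies at 44.4% to 49.6% in Keluoxin and 32.8% to 39.8% in model, while the groups overlap for the 3p arms.

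The base found at a differing last position set the kinds of end apart. In all 4 5p strands, the share of reads ending in a differing A was lower in Keluoxin, while the share ending in a differing C, G or T was higher. These are shares of each strand's reads and not levels. A differing A at the end is the usual mark of adenylation and a differing T of uridylation, and here both were read on the deposited DNA letters. For A, 18.2% of 362 arms passed, 0.829% higher in Keluoxin, and the median difference was −0.53 points. miR-181a-5p had 11.3% ± 1.3 in Keluoxin and 14.8% ± 1.1 in model (difference −3.56 points, limma adjusted p = 0.00407), with no overlap. miR-181b-5p had 17.9% ± 1.4 in Keluoxin and 21.1% ± 0.8 in model (−3.20 points, limma adjusted p = 0.00537), and miR-181d-5p 16.3% ± 1.3 in Keluoxin and 21.3% ± 1.0 in model (−4.999 points, limma adjusted p = 0.000788). miR-181c-5p had the widest gap, 17.7% ± 2.2 in Keluoxin and 24.5% ± 3.2 in model (−6.78 points, limma adjusted p = 0.0116), with overlap. In CPM its most frequent form ending in A did not pass (log2 fold change −0.06, edgeR adjusted p = 0.848).

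A differing C at the end was found in 8.72% ± 1.83 of the reads of miR-181a-5p in Keluoxin and 4.50% ± 1.28 in model (4.22 points, limma adjusted p = 0.00391). The other 5p strands rose by 3.83 to 4.71 points. Of 352 arms, 57.1% passed for C, 56.8% higher, with a median difference of 2.16 points. A differing G was found in 6.68% ± 1.72 of the reads of miR-181a-5p in Keluoxin and 3.82% ± 0.54 in model (2.86 points, limma adjusted p = 0.0102), and the other 5p strands rose by 1.77 to 3.48 points, where 51.8% of 363 arms were higher. A differing T was the rarest of these ends in miR-181c-5p, at 1.79% ± 0.57 in Keluoxin and 0.791% ± 0.442 in model (1.00 points, limma adjusted p = 0.0270), a call lost on the logit of the share (adjusted p = 0.116), without both Keluoxin library 4 and model library 1 (adjusted p = 0.0910), and without Keluoxin library 2, 4 or 6 or model library 1 or 4 alone (adjusted p of 0.0514 to 0.0579). For miR-181b-5p it was 7.74% ± 0.56 in Keluoxin and 4.86% ± 0.35 in model, with no overlap (2.88 points, limma adjusted p = 0.000148). The T ends of miR-181a-5p and miR-181d-5p rose by 1.36 and 1.66 points. Of 358 arms, 26.3% passed for T, 15.6% higher, and the median difference of all arms was 0.03 points.

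Among the 3p arms, miR-181a-1-3p rose in differing C, with 2.14% ± 0.51 in Keluoxin and 0.969% ± 0.369 in model (limma adjusted p = 0.00506), and in differing G, by 2.36 points (adjusted p = 0.0258; 0.0567 without model library 4). miR-181a-2-3p rose in differing G, by 3.02 points (adjusted p = 0.0198). A differing T was the most frequent of these ends in miR-181a-1-3p, at 26.9% ± 3.6 in Keluoxin and 29.3% ± 2.6 in model, and did not pass (adjusted p = 0.347). The A and T ends of the other 3p arms did not pass either.

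**Figure D4:**
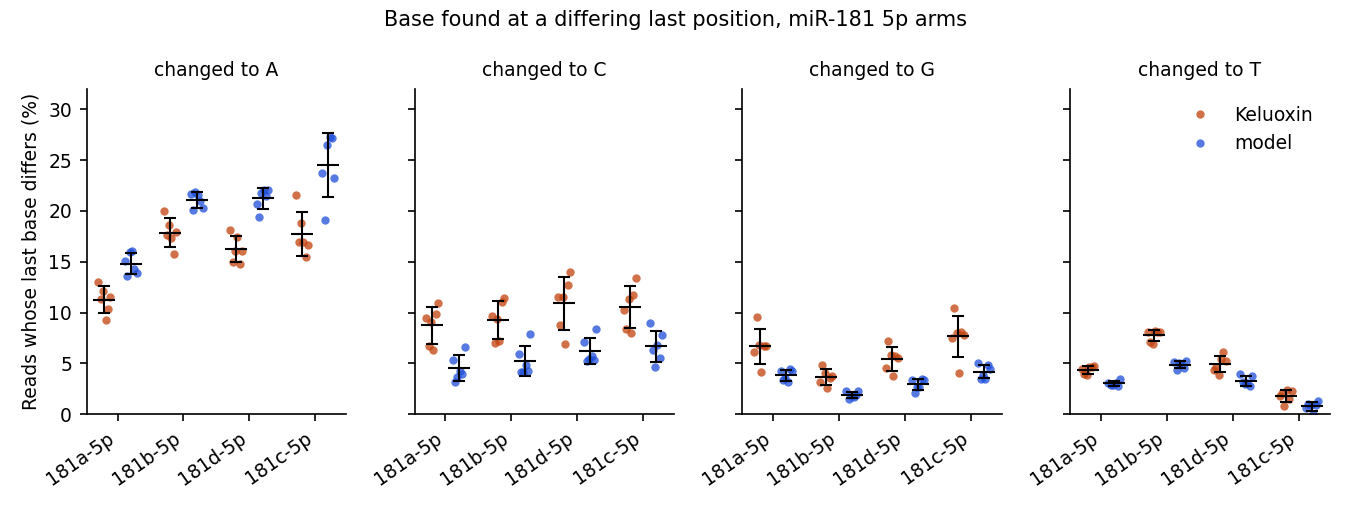
Percent of reads of each miR-181 5p strand whose last base differs from the precursor, by the base found there (A, C, G or T); points are libraries, with mean and SD of 6. The mean share of reads ending in a differing A is lower in Keluoxin for all 4 strands, and that of reads ending in a differing C, G or T is higher.

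Single read sequences showed which forms moved. The 3 most frequent reads of miR-181a-5p match the precursor throughout and differ only in length. The fourth, an exact read of 20 bases, is not printed, and the fifth carries an A in place of the last base, in capitals.

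miR-181a-5p, 23 bases: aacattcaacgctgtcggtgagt
miR-181a-5p, 21 bases: aacattcaacgctgtcggtga
miR-181a-5p, 22 bases: aacattcaacgctgtcggtgag
miR-181a-5p, ending in A: aacattcaacgctgtcggtgagA

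The 21-base form fell to 12.3% ± 1.4 of the arm's reads in Keluoxin, against 19.2% ± 1.8 in model, with no overlap. In CPM its log2 fold change was −0.70 (SE 0.13, edgeR adjusted p = 0.00212 over 13280 distinct sequences tested). The 22-base form fell to 8.17% ± 1.02 in Keluoxin, against 14.6% ± 2.2 in model, with no overlap (−0.90, SE 0.15, edgeR adjusted p = 0.00113). The 20-base form had 6.01% ± 0.77 in Keluoxin and 8.45% ± 1.19 in model, with overlap (−0.57, SE 0.15, edgeR adjusted p = 0.0127). It passed in 16 of 17 alternative fits. The full 23-base form had 22.0% ± 1.9 in Keluoxin and 17.1% ± 2.9 in model, with overlap, and did not pass (0.33, SE 0.15, edgeR adjusted p = 0.0912). It passed when total reads set the scaling (0.55, adjusted p = 0.00832). The form ending in A had 5.69% ± 1.02 in Keluoxin and 7.64% ± 1.17 in model (−0.46, SE 0.17, edgeR adjusted p = 0.0542). Over all distinct sequences tested, 33.2% passed, 18.2% higher and 15% lower in Keluoxin.

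The 21-base forms of miR-181b-5p and miR-181d-5p fell as well. That of miR-181c-5p, which is only 1 base shorter than its full form, did not pass in CPM. The 21-base form of miR-181b-5p fell to 11.66% ± 1.13 in Keluoxin, against 18.01% ± 1.23 in model (−0.70, SE 0.13, edgeR adjusted p = 0.00250), and that of miR-181d-5p to 7.87% ± 0.94 in Keluoxin, against 12.9% ± 2.2 in model (−0.70, SE 0.15, edgeR adjusted p = 0.00445). The 22-base forms had log2 fold changes of −0.89 and −0.91. The 20-base form of miR-181b-5p was lower too (−0.50, SE 0.15, edgeR adjusted p = 0.0204), and passed in 16 of 17 alternative fits. The 23-base form of miR-181b-5p had 12.6% ± 1.6 in Keluoxin and 12.8% ± 1.7 in model, and that of miR-181d-5p had 23.9% ± 2.1 in Keluoxin and 23.5% ± 3.1 in model, and neither passed.

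In miR-181c-5p the form shorter by 1 base, also of 21 bases, had 13.98 ± 4.74 CPM in Keluoxin and 16.6 ± 3.1 CPM in model (log2 fold change −0.24, SE 0.24, edgeR adjusted p = 0.470). As a share of the arm's reads, that form had a lower mean in Keluoxin, 8.64% ± 2.14, against 14.1% ± 3.5 in model, with overlap. The strand is shown with its full form and the forms that differ from it at the last base.

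miR-181c-5p, 22 bases: aacattcaacctgtcggtgagt
miR-181c-5p, ending in A: aacattcaacctgtcggtgagA
miR-181c-5p, ending in C: aacattcaacctgtcggtgagC
miR-181c-5p, ending in G: aacattcaacctgtcggtgagG

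The full form had 56.3 ± 9.0 CPM in Keluoxin and 39.2 ± 5.7 CPM in model (log2 fold change 0.52, SE 0.17, edgeR adjusted p = 0.0291). The form ending in A had 22.1 ± 4.4 CPM in Keluoxin and 23.1 ± 5.7 CPM in model (−0.06, SE 0.22, edgeR adjusted p = 0.848). The form ending in C had 14.5 ± 4.5 CPM in Keluoxin and 7.25 ± 1.99 CPM in model (1.00, SE 0.26, edgeR adjusted p = 0.0104). The form ending in G had 10.2 ± 1.7 CPM in Keluoxin and 4.22 ± 0.62 CPM in model (1.27, SE 0.20, edgeR adjusted p = 0.00102). With only reads that match the precursor throughout, miR-181c-5p as a whole stood at a log2 fold change of 0.53 (edgeR adjusted p = 0.0125). The higher level of this strand was therefore seen in its unaltered reads as well as in those with a differing C or G. The call on the full form was lost with upper quartile scaling (0.40, adjusted p = 0.0905) and in 8 of the 12 fits that left out 1 library (without Keluoxin library 4 or 6 or any 1 model library, adjusted p of 0.0518 to 0.0685).

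Of the family's 669 tested sequences, 186 were higher (27.8%) and 87 lower (13.0%) in Keluoxin, against 18.2% and 15% of all 13280. Split by kind within the 5p strands, 2 of 58 sequences without a difference were higher and 16 lower, against 10.3% higher and 23.9% lower of the 2766 such sequences in all arms. Of 26 sequences with a last base changed to C, 18 were higher and 0 lower, against 34.5% higher of 663 in all arms. Of 13 changed to G, 11 were higher and 0 lower, against 39.4% higher of 558. Of 16 changed to T, 7 were higher and 0 lower, against 10.01% higher of 759, and of 30 changed to A, 1 was higher and 3 lower, against 4.93% higher and 22.8% lower of 933. Sequences of 1 strand share their source, so these counts are descriptions. Each count of 0 lower comes from the same edgeR fit and was also 0 at an unadjusted p under 0.05.

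Reads without any difference from the precursor made up 54.0% ± 2.2 of miR-181a-5p in Keluoxin and 64.8% ± 2.2 in model. For miR-181b-5p they made up 46.0% ± 1.8 in Keluoxin and 58.1% ± 2.5 in model, and for miR-181d-5p 47.9% ± 1.6 in Keluoxin and 58.7% ± 3.1 in model. None of these 3 overlapped between the groups. The share of all arms without overlap in this measure was not computed. More differing bases in the last 3 positions were called in Keluoxin for 57.4% of 378 arms, so fewer such exact reads are not particular to the family. For miR-181c-5p the share was 53.1% ± 2.6 in Keluoxin and 59.2% ± 3.7 in model, with overlap.

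Within the reads without a difference, the lengths of miR-181a-5p were spread differently. The 23-base class held 40.9% ± 3.6 in Keluoxin, lowest library 36.8%, and 26.5% ± 5.0 in model, highest library 32.5%. The 21-base class held 22.9% ± 2.1 in Keluoxin and 29.7% ± 2.1 in model, and the 22-base class 15.3% ± 1.9 in Keluoxin and 22.6% ± 3.0 in model. None of these 3 classes overlapped between the groups, and the share of all arms with such a pattern was not computed. Over all reads of miR-181a-5p, with a difference or without, the gaps were smaller: the 23-base class held 42.0% ± 4.0 in Keluoxin and 31.8% ± 5.2 in model, the 21-base class 21.1% ± 2.1 in Keluoxin and 25.95% ± 2.07 in model, both with overlap, and the 22-base class 14.8% ± 1.4 in Keluoxin and 21.3% ± 2.9 in model, without overlap. In miR-181b-5p, among reads without a difference, the 21-base class held 25.5% ± 2.0 in Keluoxin and 31.2% ± 1.5 in model, without overlap, and the 23-base class 27.7% ± 3.5 in Keluoxin and 22.3% ± 3.4 in model, with overlap. The shortest class shown, 19 bases, was not lower in Keluoxin: it held 6.74% ± 0.61 of miR-181a-5p in Keluoxin and 5.78% ± 0.54 in model.

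**Figure D5:**
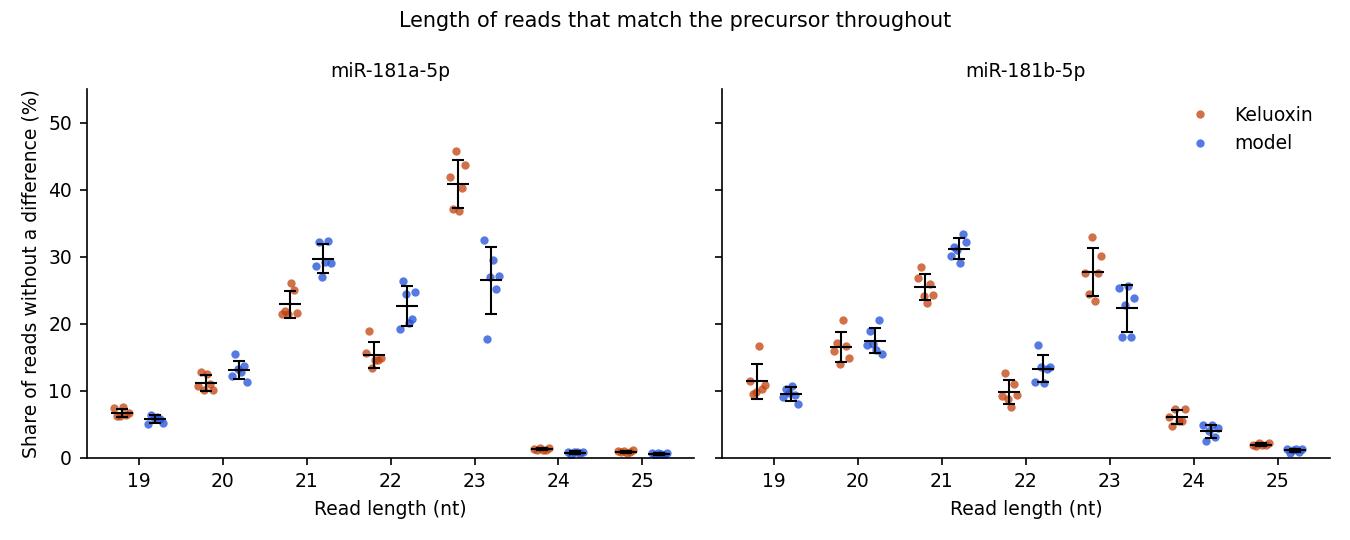
Share of each read length among reads of miR-181a-5p and miR-181b-5p that match the precursor throughout (%); points are libraries, with mean and SD of 6. For miR-181a-5p the 23-base class lies at 36.8% to 45.8% in Keluoxin and 17.6% to 32.5% in model, and the 21-base and 22-base classes are lower in Keluoxin.

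The mean read length itself did not pass for any of the 7 arms that could be tested, in a limma fit where 8.14% of 381 arms passed; 2 of the 7 had an unadjusted p under 0.05. miR-181a-5p averaged 21.80 ± 0.11 bases in Keluoxin and 21.64 ± 0.12 in model (difference 0.16, SE 0.06, limma adjusted p = 0.120). It passed without Keluoxin library 4 (0.20, adjusted p = 0.0409). miR-181d-5p averaged 22.35 ± 0.16 bases in Keluoxin and 22.15 ± 0.16 in model (0.20, SE 0.09, limma adjusted p = 0.159). The other 5 arms differed by −0.05 to 0.11 bases. The 5′ end, which sets the seed, was mostly at 1 position: reads of miR-181a-5p that began elsewhere than at the main start made up 0.406% ± 0.174 in Keluoxin and 0.577% ± 0.281 in model. None of the 7 arms passed for the start, where 3.78% of 370 arms did and 1 of the 7 had an unadjusted p under 0.05, and the largest gap was that of miR-181a-2-3p, at 3.00% ± 1.06 in Keluoxin and 4.78% ± 1.18 in model (limma adjusted p = 0.141).

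Before the last 3 bases, miR-181c-3p alone of the 7 arms passed, in a fit where 4.75% of 379 arms did and the median difference was 0.24 points. It had a differing base there in 11.95% ± 2.51 of its reads in Keluoxin and 4.95% ± 2.19 in model (difference 7.01 points, SE 1.29, limma adjusted p = 0.00859). The range was 7.41% to 14.8% in Keluoxin and 2.17% to 7.57% in model. The other 6 arms differed by 0.55 to 1.11 points and did not pass (limma adjusted p of at least 0.350). Most of the change was a single one, 16G>T, with positions counted from the 5′ end of the read and the precursor's base first. It was found in 9.70% ± 1.36 of the reads of miR-181c-3p in Keluoxin, lowest library 7.41%, and in 3.42% ± 0.90 in model, highest library 4.70%. All other changes before the last 3 bases came to 2.26% ± 1.86 in Keluoxin and 1.53% ± 1.37 in model, with overlap.

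The lead read with this change held 74.1% of the reads that carry it and is shown with the changed base in capitals.

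miR-181c-3p with 16G>T: accatcgaccgttgaTtgg

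Every read with 16G>T also matched mir-181a-1 with a single difference, 19T>G, and was shared equally between the precursors in the counts. As given above, miR-181a-1-3p and miR-181c-3p differ at positions 16 and 19 alone, so a read that carries U at position 16 and G at position 19 lies midway between them. As a read of mir-181a-1 the lead read ends in a differing G, and reads with such an end rose in that arm by 2.36 points. The lead read is itself counted in that rise through its equal split, so the rise is not separate support for either precursor. Which of the precursors these reads came from cannot be told apart.

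A fixed list of other neuronal and retinal microRNAs is given for comparison. Whether each of them comes from retinal neurons was not tested. Of 27 tested arms of mir-9, mir-124, mir-128, mir-129, mir-132, mir-137, mir-138, mir-7a, mir-7b, mir-212, mir-218, mir-219a, mir-153, mir-135a and mir-335, 0 were higher and 5 lower in Keluoxin (median log2 fold change −0.19), against a median of −0.02 for the miR-181 arms and −0.12 for the 512 annotated arms, of which 4.1% were higher and 9.57% lower. At an unadjusted p under 0.05, and with DESeq2, 0 were higher as well. The 5 lower ones were miR-129-1-3p, miR-129-5p, miR-135a-2-3p, miR-219a-1-3p and miR-335-3p. Of the abundant ones, miR-9-5p had 58697 ± 13204 CPM in Keluoxin and 69261 ± 3486 CPM in model (edgeR adjusted p = 0.245), miR-124-3p 36953 ± 7960 CPM in Keluoxin and 46636 ± 6841 CPM in model (adjusted p = 0.132), and miR-7a-5p 13315 ± 3601 CPM in Keluoxin and 13095 ± 1073 CPM in model (adjusted p = 0.920). Of the 6 arms of the photoreceptor cluster, miR-182-5p and miR-183-3p fell and 0 rose, with a median of −0.46; 1 was higher at an unadjusted p under 0.05 in edgeR and 0 with DESeq2. miR-183-5p, at 138427 ± 39522 CPM in Keluoxin and 157975 ± 11887 CPM in model, and miR-96-5p, at 52213 ± 5877 CPM in Keluoxin and 42880 ± 3584 CPM in model, did not pass (edgeR adjusted p = 0.437 and 0.0529).

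The arms most like a member were those with the highest Pearson correlation of log2 CPM over the 12 libraries, among 174 other annotated arms with at least 100 CPM. The value includes the difference between the groups and is a description. For miR-181a-5p they were miR-132-5p (0.90), let-7g-5p (0.90), miR-433-3p (0.85), let-7i-5p (0.84) and miR-212-5p (0.82), none of which passed the test between the groups. For miR-181c-5p they were miR-136-3p (0.94), miR-30b-5p (0.94), miR-29c-3p (0.91), miR-29a-3p (0.91) and miR-341-3p (0.83). Of these, miR-136-3p was higher in Keluoxin by 0.63, miR-30b-5p by 0.43, miR-29c-3p by 0.54 and miR-29a-3p by 0.31 on the log2 scale (edgeR adjusted p of 0.0222, 0.0112, 0.0302 and 0.0313), and miR-341-3p, at 0.42, did not pass (adjusted p = 0.0666).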

How the data were processed

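Each library began with 1 µg of total RNA and kept inserts of 15 to 35 nt, per the labels' protocols; each table was 1 library. Novoalign, Bowtie, cutadapt and bcl2fastq are named by the submitters' processing notes. For the precursors, genome build and miRBase release were not given in the sources used here. The deposited values are read counts per distinct sequence, without normalization; every listed sequence had 2 reads or more and at most 1 difference from a precursor, per the file headers and values; the authors divided the count of a sequence among the precursors it matches, and the undivided number in its tag was used here. The other deposited fields, lengths and alignment positions, per the file headers are not normalized either, and positions have 5 added.

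Reads were assigned to 5p or 3p by the side of the precursor's middle. Copies whose arm shared over 50% of its reads got 1 joint name, and other shared reads were split equally. Levels were tested with edgeR 4.0.16 (TMM, filter on low counts, quasi-likelihood test) in R 4.3.3; ratios, lengths, starts and differing bases with limma 3.58.1; Benjamini-Hochberg adjustment ran over all features. On simulated counts of 812 arms the level test recovered 22.4% of arms changed 1.5-fold, 50.7% changed 2-fold and 93.9% changed 4-fold, with 4 unchanged arms called. The biological coefficient of variation was 0.480. No 2 libraries agreed within sampling noise: chi-square per degree of freedom was at least 70.7. Python 3.11.15 with pandas 2.3.3, NumPy 2.4.6 and SciPy 1.17.1 and DESeq2 1.42.0 were also used.

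The members, lists and named arms (all arms of the family, the 5 most frequent reads of each 5p strand, the 5 arms most like miR-181a-5p and miR-181c-5p) were chosen with earlier results of these data known. The split by last base, the test of distinct sequences and the reads specific to 1 copy were added after the data were seen. Intervals and limits cover counting error only.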

Additional observations from a re-analysis of the deposited data

Results flagged for a closer look

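Within a group of 6 libraries, 6 of 136 sets of values held 1 library set far apart from the other 5, where chance alone gives about 1 in 20 sets. miR-181d-5p had 596 CPM in Keluoxin library 4, against 808 to 875 CPM in the other 5. In the same library miR-181a-5p had a differing base in the last 3 positions in 31.3% of its reads, against 37.3% to 40.3%, and miR-181a-2-3p averaged 21.2 bases, against 21.5 to 21.6. This is also the library with the most lens, cornea and muscle microRNA reads; their part in these values was not tested. miR-181c-3p had 33.2 CPM in model library 2, against 46.5 to 50.5 CPM. Reads of miR-181c-5p with another start made up 1.75% in model library 4 and 0 in the other 5, and those of miR-181d-5p made up 0.857% in model library 6, against 0.210% to 0.380%.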

How the results depend on the processing

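Over 98 results and 1723 alternative values, 1592 kept direction and side of the threshold, and 53 took the other direction, none of them past the threshold in either fit. Total reads scaling turned the small log2 fold changes of miR-181a-5p, miR-181b-5p and miR-181a-1-3p to 0.16, 0.15 and 0.13, and those of reads miR-181b-5p 2 and 4 and miR-181c-5p 2 and 3 (ranked by frequency) to 0.14, 0.0079, 0.18 and 0.023. Annotated precursors only turned the same 3 arms to 0.081, 0.072 and 0.051. Upper quartile scaling turned miR-181d-5p, miR-181c-3p and the first read of miR-181d-5p to −0.20, −0.19 and −0.082. Exact reads only turned miR-181a-1-3p to 0.064 and the ratio of mir-181a-1 to −0.12, and reads of 18 to 26 nt turned miR-181a-5p to 0.0048. Without Keluoxin replicate 4 and model replicate 1 (chosen after seeing the data), miR-181a-5p was 0.017, miR-181b-5p 0.028, miR-181b-5p read 2 0.088, the A ends of miR-181a-1-3p and miR-181a-2-3p 0.48 and 0.85 points, and for miR-181a-1-3p mean length 0.021 nt and other starts 0.075 points; miR-181b-1-3p passed (−0.91, adjusted p = 0.0498).

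Leaving out 1 library or that pair gave levels of −0.11 to 0.027 for miR-181a-5p, −0.11 to 0.036 for miR-181b-5p, −0.032 to 0.14 for miR-181d-5p, 0.39 to 0.48 for miR-181c-5p, −0.21 to 0.0040 for miR-181a-1-3p, −1.07 to −0.67 for miR-181b-1-3p and −0.012 to 0.11 for miR-181c-3p. The ratio of mir-181a-1 ran from −0.032 to 0.14, miR-181b-5p read 2 from −0.16 to 0.088, miR-181c-5p read 2 from −0.20 to 0.0092 and miR-181d-5p read 1 from −0.043 to 0.19. A ends of miR-181a-1-3p ran from −0.87 to 0.48 points and of miR-181a-2-3p from −1.10 to 0.85; T ends of miR-181c-3p from −1.95 to 0.14, its last 3 bases from −1.22 to 1.48 and its other starts from −1.29 to 0.047; other starts of miR-181c-5p from −0.14 to 0.25 and of miR-181a-1-3p from −0.78 to 0.075; and length of miR-181a-1-3p from −0.10 to 0.026 nt. For miR-181c-5p, upper quartile scaling gave 0.18 and no filter 0.39, both not past the threshold; for miR-181b-1-3p, upper quartile gave −1.12 and DESeq2 −0.85, both past it.

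Of all arms, 140 were called (75 higher), against 73 with annotated precursors only, 219 without the pair and 235 with DESeq2; total reads gave 90 higher and 26 lower, upper quartile 72 higher and 109 lower. Leaving out 1 library gave 72 (without model library 4) to 245 (without model library 1), and 85 without model library 3. Ratios gave 24, against 11 at 5 reads, 9 to 32 with 1 library out and 35 without the pair. Length gave 31, against 48 with 18 to 26 nt, 4 with exact reads, 90 without the pair and 14 to 76 with 1 library out; starts gave 14, against 8 with 18 to 26 nt and 11 to 24; bases before the last 3 gave 18, against 11 to 26; and A ends 66, against 48 to 105. The causes were not tested.

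The labels do not say that the replicate numbers pair libraries. Same-numbered deviations correlated at 0.04 to 0.24, and only replicate 3 matched its own number best. Such values cannot settle whether libraries were paired. With a replicate block, 14 ratios and 51 lengths were called, the T ends of miR-181c-5p (adjusted p = 0.0716) and G ends of miR-181a-2-3p (adjusted p = 0.0585) no longer passed, and miR-181c-5p stayed at 0.45 (adjusted p = 0.0472). Depth limits the rare arms: miR-181b-2-3p could not be tested, and mir-181b-2 entered the ratio test only at 5 reads.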
